A study of Mus musculus with 18 samples.

Results

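Transcript levels are described here for 9 of the 55487 genes in the count files, Ccn1, Ccn2, Ankrd1, Amotl2, Tagln, Smad7, Skil, Ltbp2 and Tgfb1. They were chosen by name, as genes of matricellular CCN proteins and as targets, feedback inhibitors or ligands of TGF-beta and YAP signalling. The choice used no threshold on a measured value, but was made with earlier results of these data known. All 9 were among the 13600 genes with enough counts to be tested. The libraries came from T23 cells, mouse adenocarcinoma cells in a study of prostate cancer, sequenced as poly(A) RNA in 6 groups of 3. One group had been grown with fibroblasts, enzalutamide and isoliquiritigenin, one with fibroblasts and enzalutamide, and one with enzalutamide alone. The other groups had received no drug, and had been grown with SPARC-deficient fibroblasts, with wild-type fibroblasts, or alone. Enzalutamide is an androgen receptor antagonist, isoliquiritigenin is a plant chalcone, and SPARC is a secreted collagen-binding glycoprotein.

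The sample titles name the same fibroblasts in the wild-type co-culture and in both co-cultures with enzalutamide, whereas the descriptions of the drug-treated co-cultures call those fibroblasts human. The labels give no dose, no time and no step that parts T23 cells from fibroblasts. They do not say whether the 3 replicates of a group are separate cultures, so p-values measure the spread between these libraries, which may be technical. In RNA of whole cultures, fewer cells of a type and less RNA per cell cannot be told apart.

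TGF-beta is secreted in a latent complex, and the active ligand signals through a pair of serine/threonine kinase receptors to Smad transcription factors. Smad signalling induces its own brakes, Smad7 and Skil, together with genes of the contractile cytoskeleton and the extracellular matrix. YAP and TAZ are coactivators that the Hippo kinases keep out of the nucleus, and that bind DNA through TEAD factors when cells spread, stretch or escape contact inhibition. Many genes of the matrix answer to both pathways, and in prostate tissue TGF-beta is best known as a signal between stroma and epithelium.

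Among the TGF-beta genes, Tagln (ENSMUSG00000032085, chromosome 9, 45929619 to 45936058, minus strand, GRCm38) encodes the actin-binding protein transgelin of smooth muscle. Smad7 (ENSMUSG00000025880, chromosome 18, 75367529 to 75395935, plus strand) encodes the inhibitory Smad that blocks the receptor, and Skil (ENSMUSG00000027660, chromosome 3, 31095058 to 31122577, plus strand) encodes the Smad corepressor SnoN. Ltbp2 (ENSMUSG00000002020, chromosome 12, 84783212 to 84876532, minus strand) encodes a protein of the latent TGF-beta binding protein family that sits on elastic microfibrils. Tgfb1 (ENSMUSG00000002603, chromosome 7, 25687002 to 25705077, plus strand) encodes the ligand.

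Among the YAP-responsive genes, Ccn1 (ENSMUSG00000028195, chromosome 3, 145646976 to 145649981, minus strand) and Ccn2 (ENSMUSG00000019997, chromosome 10, 24595442 to 24598683, plus strand) encode secreted matricellular proteins that bind integrins. Ankrd1 (ENSMUSG00000024803, chromosome 19, 36111961 to 36120099, minus strand) encodes an ankyrin repeat protein of muscle sarcomeres and nuclei. Amotl2 (ENSMUSG00000032531, chromosome 9, 102716672 to 102733418, plus strand) encodes an angiomotin, which binds YAP and holds it in the cytoplasm.

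RefSeq promoter windows (GRCm38.p6) were matched for 5 of the 9 genes, Ccn1, Ankrd1, Amotl2, Ltbp2 and Tgfb1. Ccn1 is shown because no GENCODE M21 transcript reaches into its window. Its transcript differed between groups in 5 of the 7 comparisons of group pairs below. The sequence is the 250 bases before the transcript start, chr3:145649986-145650235 on the minus strand, and its capitals mark the core motif of TEAD factors (GGAATG), which stands here on the other strand, and the TATA box (TATAAA).
Ccn1 promoter: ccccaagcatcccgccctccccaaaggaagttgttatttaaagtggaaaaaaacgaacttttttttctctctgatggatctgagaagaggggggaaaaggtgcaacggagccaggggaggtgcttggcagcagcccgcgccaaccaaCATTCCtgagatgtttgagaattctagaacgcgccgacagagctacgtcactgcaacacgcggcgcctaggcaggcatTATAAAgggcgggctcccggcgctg

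In Ccn1 the TEAD core lay 103 to 98 bases before the start and the TATAAA box 25 to 20 bases before it. Stretches of 30 bases around the TEAD core are shown for Ankrd1 and Amotl2, the other YAP-responsive genes with a window. Distances count from the RefSeq transcript start of the table. By the GENCODE coordinates above, which start elsewhere, the Ankrd1 and Amotl2 stretches lie inside the annotated genes. Those of Ankrd1 are chr19:36120037-36120066 and chr19:36119957-36119986, both on the minus strand, and that of Amotl2 is chr9:102717727-102717756 on the plus strand. Capitals mark the TEAD core and the Smad box (CAGAC) on either strand. In the downstream Ankrd1 site a Smad box on the other strand and the TEAD core overlap by 1 base.
Ankrd1 upstream site: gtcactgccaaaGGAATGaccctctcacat
Ankrd1 downstream site: cttccCAGACactaaGTCTGGAATGaaaat
Amotl2 site: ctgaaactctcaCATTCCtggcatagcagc

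The TEAD core was searched on both strands of the 250 bases before the start, as were the Smad box, the TATA box, the AP-1 motif (TGANTCA) and the CArG box of serum response factor. Of the 32851 promoters of the table, 12.6% held the TEAD core, 42.2% the Smad box, 12.4% the TATA box, 6.75% the AP-1 motif and 1.47% the CArG box. Ankrd1 held 2 matches to the TEAD core and 2 to the Smad box, and Ltbp2 held 2 to the Smad box and 0 to the TEAD core. Tgfb1 held 0 matches to these 5 motifs. A match is a description of the letters, not of binding.

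Library totals lay between 16103541 and 26713475 counts, and a count of 0 allowed up to 0.112 to 0.186 CPM (counts scaled to the library total). Replicate 2 of T23 cells with enzalutamide stood apart, with 26.4% of its counts on the ribosomal RNA gene CT010467.1, against 0.0391 to 0.138% in the other 17 libraries. Of 6 epithelial markers, Epcam, Cdh1, Krt8, Krt18 and Krt5 were each below 1 CPM in the 18 libraries, and Krt19 lay between 0.414 and 18.4 CPM, so that these adenocarcinoma cells largely lacked them. Of 8 fibroblast markers, 7 were at 1 CPM or more in each library, also in T23 cells grown alone, and Lum was at most at 0.148 CPM. The share of fibroblast RNA in the co-culture libraries was therefore not measurable with this list. Col1a1 and Col3a1 made up most of the summed level of these markers in each group, at 10791 and 4917 CPM in T23 cells alone. Col1a1 also stands among the TGF-beta target genes below. Sparc was at 3031 ± 63.7 CPM with SPARC-deficient fibroblasts and at 3069 ± 21.2 CPM with wild-type fibroblasts (SD, n = 3 each). T23 cells alone had 3197 ± 9.24 CPM, so these levels do not show whether the fibroblasts lacked Sparc. Against T23 cells alone the log2 difference was -0.08 with SPARC-deficient and -0.06 with wild-type fibroblasts. The share of fibroblast RNA was not estimated from Sparc.

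The YAP-responsive genes were the abundant ones of the set. In T23 cells alone, per kilobase of exon, Ccn1 stood at 327 ± 20.9 RPKM (SD, n = 3), above 99.4% of the 13591 tested genes with a length. Ankrd1 (83.6 ± 2.26 RPKM), Amotl2 (81.1 ± 4.94 RPKM) and Ccn2 (60.2 ± 5.91 RPKM) were above 96.5%, 96.4% and 94.9% of genes. Tgfb1 had 12.1 ± 0.408 RPKM, Skil 8.62 ± 0.252, Ltbp2 5.01 ± 0.573 and Smad7 4.11 ± 0.295 RPKM, above 70.7%, 62.1%, 48.7% and 44.2% of genes. Tagln was the lowest, at 1.30 ± 0.0959 RPKM, above 24.1% of genes, and its 10 to 92 counts per library limit its precision. Smooth muscle markers beside Tagln were uneven: Acta2 was at 339 to 635 CPM, while Des was at most at 1.18 CPM and Myh11 had at most 1 count in a library. Acta2 thus made up most of the smooth muscle sums given below. Likewise Kdr, at 2.33 to 6.17 CPM, made up most of the endothelial sums. Of the other endothelial markers, Pecam1 was at most at 0.582 CPM, Cdh5 at 0.573 CPM and Tek at 1.79 CPM.

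Across the 6 groups, the levels of Ccn1, Ccn2 and Amotl2 stood in the same order at the top. Each was highest with SPARC-deficient fibroblasts, then in T23 cells alone, then with wild-type fibroblasts, and the ranges of these 3 groups did not overlap for any of them. For Ccn1 the means were 974 ± 46.2 CPM with SPARC-deficient fibroblasts, 660.4 ± 42.2 CPM in T23 cells alone and 529 ± 5.38 CPM with wild-type fibroblasts (SD, n = 3 each). The 3 drug-treated groups were lower, with 441 ± 14.9 CPM for fibroblasts and enzalutamide, 439 ± 48.5 CPM for enzalutamide and 411 ± 11.6 CPM with isoliquiritigenin added, and neighbours among these 3 overlapped. Amotl2 was at 422 ± 31.5 CPM with enzalutamide, 368 ± 7.27 CPM with fibroblasts and enzalutamide and 328 ± 22.2 CPM with isoliquiritigenin added, with no overlap between these 3. Ccn2 was at 129 ± 2.09 CPM with enzalutamide, 103 ± 5.53 CPM with fibroblasts and enzalutamide and 95.4 ± 7.78 CPM with isoliquiritigenin added, with overlap between the last pair. Enzalutamide and wild-type fibroblasts overlapped for both genes.

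Ankrd1 followed another order. It was highest with enzalutamide (286 ± 21.2 CPM), enzalutamide with fibroblasts (271 ± 8.20 CPM) and SPARC-deficient fibroblasts (268 ± 7.32 CPM), which overlapped in that order, and lowest with isoliquiritigenin (158 ± 24.8 CPM), below the other groups. Ltbp2 was lowest with fibroblasts and enzalutamide, at 23.8 ± 3.03 CPM, without overlap with the next group, and highest in T23 cells alone, at 41.0 ± 4.69 CPM. Smad7 was highest with SPARC-deficient fibroblasts, at 21.2 ± 0.851 CPM, without overlap with the next group. Tgfb1, between 54.4 ± 4.81 and 63.9 ± 1.48 CPM, and Tagln, between 1.61 ± 0.609 and 3.48 ± 0.350 CPM, overlapped between each pair of neighbours, and Skil spanned 66.4 ± 5.72 to 84.1 ± 7.64 CPM with a single gap, between T23 cells alone and wild-type fibroblasts.

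**Figure D1:**
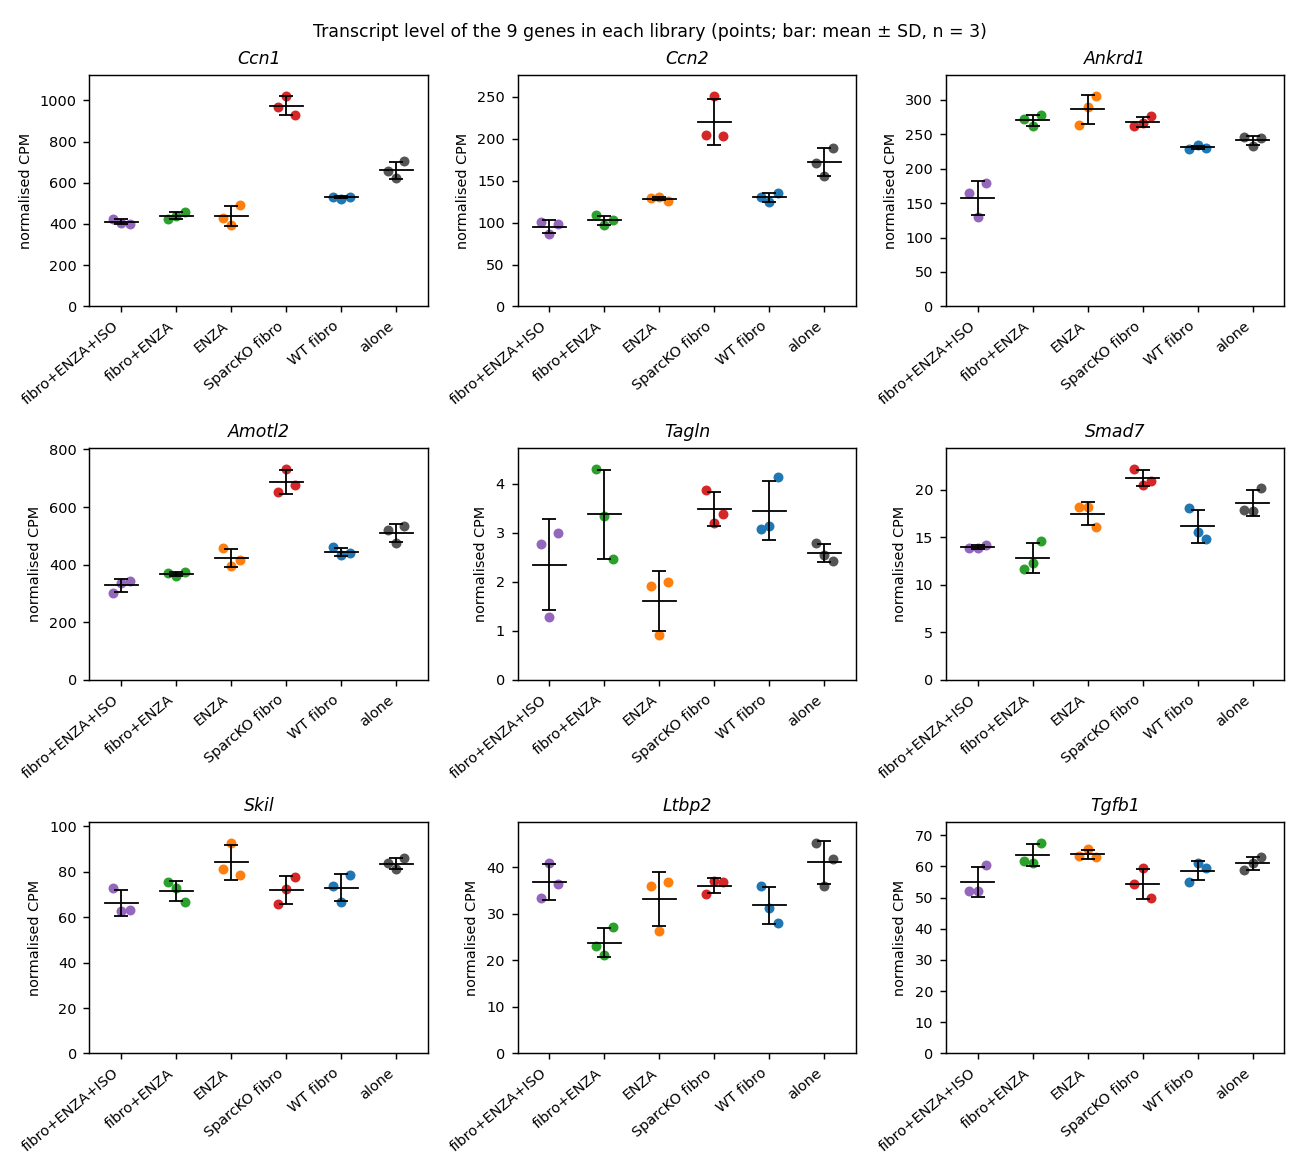
Transcript level of the 9 genes (y axis, normalised CPM, linear, from 0) in each of the 18 libraries (points) by group (x axis), with the group mean and SD (bars, n = 3); ISO is isoliquiritigenin, ENZA enzalutamide, SparcKO fibro and WT fibro SPARC-deficient and wild-type fibroblasts, and alone T23 cells alone. Ccn1, Ccn2 and Amotl2 peak with SPARC-deficient fibroblasts, at 974, 219.8 and 687 CPM on average, while Ankrd1 is lowest with isoliquiritigenin, at 158 CPM.

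Against wild-type fibroblasts, SPARC-deficient fibroblasts went with higher Ccn1, Ccn2, Amotl2 and Smad7 in the T23 libraries. Ccn1 was at 969, 1023 and 931 CPM with SPARC-deficient fibroblasts, against 533, 523 and 531 CPM with wild-type fibroblasts. The libraries with SPARC-deficient fibroblasts stood far above the others, by 1.84-fold (log2 0.88 ± 0.07 SE, adjusted p 3.60e-09, edgeR quasi-likelihood test with Benjamini-Hochberg adjustment over 13600 genes). Ccn2 was at 204, 252 and 204 CPM with SPARC-deficient fibroblasts, against 130.4, 124 and 135 CPM with wild-type fibroblasts. It was 1.69-fold higher without overlap (log2 0.76 ± 0.08, adjusted p 3.47e-07), and its 252 CPM in replicate 2 was the highest of the 18 libraries.

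The angiomotin gene Amotl2 was at 651, 732 and 677 CPM with SPARC-deficient fibroblasts, against 461, 435 and 439.7 CPM with wild-type fibroblasts, again without overlap. It was 1.54-fold higher (log2 0.63 ± 0.06, adjusted p 4.03e-07). Smad7, which turns off the TGF-beta receptor, was at 22.2, 20.5 and 20.9 CPM with SPARC-deficient fibroblasts, against 18.1, 15.6 and 14.8 CPM with wild-type fibroblasts. Its ranges were close but separate, and it was 1.31-fold higher (log2 0.39 ± 0.09, adjusted p 0.00523). Ankrd1 was at 261, 266 and 276 CPM with SPARC-deficient fibroblasts, against 229, 234 and 229.9 CPM with wild-type fibroblasts. The groups did not overlap, but the difference did not pass the test (log2 0.21 ± 0.07, adjusted p 0.0660), whereas DESeq2 called it (adjusted p 0.0423).

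The other 4 genes did not pass. Their log2 differences were 0.02 ± 0.23 for Tagln, -0.02 ± 0.08 for Skil, 0.18 ± 0.11 for Ltbp2 and -0.11 ± 0.07 for the ligand gene Tgfb1 itself (adjusted p 0.346 to 0.973, edgeR). In all, 4 of the 9 genes were called, each of them higher, where 11.5% of the tested genes were called, 6.72% higher and 4.79% lower. The median log2 difference of the 9 genes was 0.21, against -0.0054 over the tested genes. The ranges of the groups did not overlap for 5 of the 9 genes, against 30.4% of the tested genes. The summed level of the fibroblast markers was 19049 to 19705 CPM with SPARC-deficient fibroblasts and 16601 to 17847 CPM with wild-type fibroblasts. On average Col1a1, Col3a1, Dcn, Pdgfra and Thy1 were higher with SPARC-deficient fibroblasts, whereas Pdgfrb was lower (219 against 230 CPM). Fap was lower without overlap, at 2.25 ± 0.417 CPM with SPARC-deficient and 4.24 ± 0.738 CPM with wild-type fibroblasts. The epithelial sum, nearly all of it Krt19, was 16.6 to 19.1 CPM with SPARC-deficient fibroblasts and 12.7 to 13.9 CPM with wild-type fibroblasts. The smooth muscle sum was 492 to 559 CPM with SPARC-deficient fibroblasts and 572 to 675 CPM with wild-type fibroblasts, and the endothelial sum 4.03 to 4.29 CPM with SPARC-deficient fibroblasts and 5.01 to 6.25 CPM with wild-type fibroblasts. The part of these sums in the differences was not tested.

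Around these genes in the pathway, ligands moved apart in the same comparison. The list counts here and in the next paragraph stand against the 11.5% of tested genes called, 6.72% higher and 4.79% lower. Inhbb, the gene of an activin subunit, was at 253 ± 15.6 CPM with SPARC-deficient fibroblasts and at 151 ± 4.42 CPM with wild-type fibroblasts (SD, n = 3 each; log2 0.74, adjusted p 3.60e-09, edgeR), while Tgfb3 was lower (log2 -0.22). Of 8 tested genes of latency and activation, 3 were higher and 1 lower, with the microfibril gene Fbn1 (log2 0.29) and the latent complex gene Ltbp1 (0.24) higher and the latent TGF-beta anchor gene Lrrc32 lower (-0.32). Of 8 receptor genes 2 were higher, the coreceptor gene Tgfbr3 (log2 0.42) and the activin receptor gene Acvr1b (0.26). Of 9 genes of Smads and their inhibitors, edgeR and DESeq2 each called 0, and 1 had an unadjusted p under 0.05.

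Of 12 tested TGF-beta target genes, 4 were higher and 1 lower with SPARC-deficient fibroblasts. The collagen crosslinking gene Lox was at 1778 ± 162 CPM with SPARC-deficient fibroblasts and at 1176 ± 102 CPM with wild-type fibroblasts (log2 0.60, adjusted p 7.20e-06, edgeR), and the matrix gene Tgfbi was higher too (0.41). Of 18 further YAP target genes 6 were higher and 0 lower, among them the ectonucleotidase gene Nt5e (0.89), the insulin-like growth factor binding protein gene Igfbp3 (0.43) and the tissue factor gene F3 (0.30). Of 17 genes of the Hippo core and its TEAD factors 2 were higher, the kinase gene Lats2 (0.36), itself counted among the YAP targets, and Tead3 (0.29). That called share was near the 11.5% of the tested genes. The other CCN genes split: Ccn5 was higher (log2 0.89), and Ccn3 (-0.96) and Ccn4 (-0.23) were lower.

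**Figure D2:**
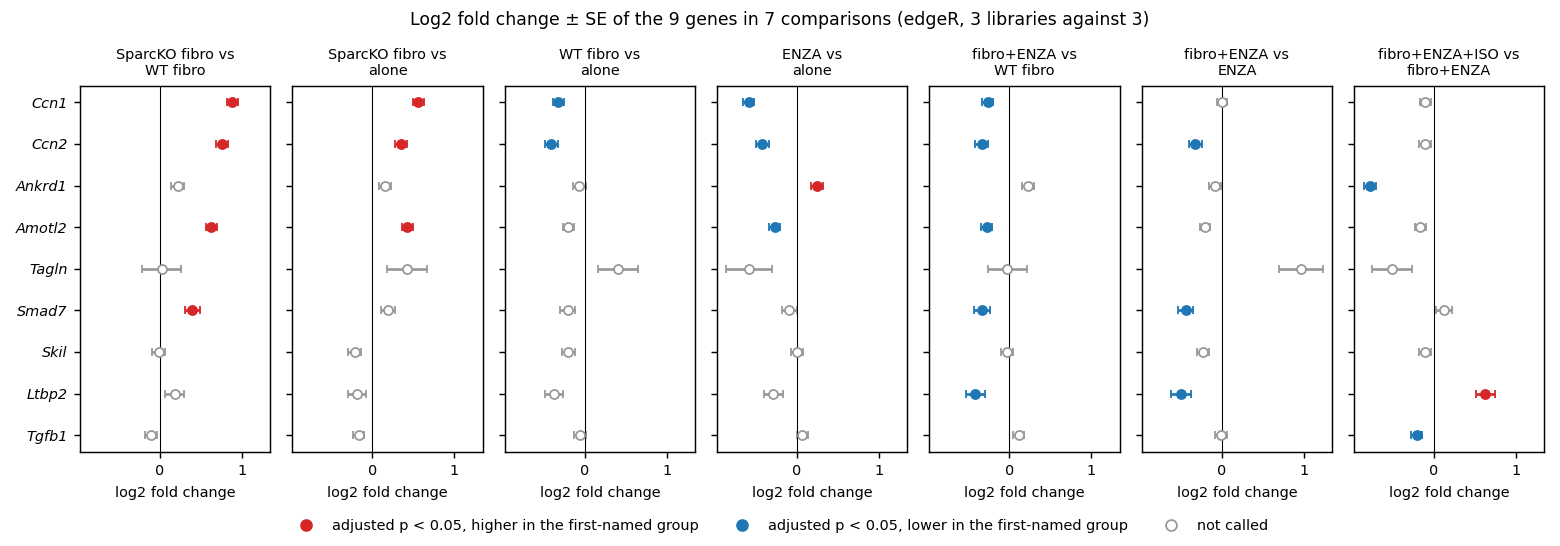
Log2 fold change (x axis) with its SE of the 9 genes (y axis) in 7 comparisons of 3 libraries against 3, the first-named group over the second. Filled points passed an adjusted p of 0.05 in edgeR (red higher, blue lower in the first-named group) and open points did not. Ccn1, Ccn2 and Amotl2 are filled to the right in both panels with SPARC-deficient fibroblasts first, and Ankrd1 reaches -0.78 in the isoliquiritigenin panel.

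Against T23 cells alone, SPARC-deficient fibroblasts went with higher levels of the same 3 abundant genes. Ccn1 was at 969, 1023 and 931 CPM with SPARC-deficient fibroblasts and at 655, 621 and 705 CPM in T23 cells alone. The groups were separate, and Ccn1 was 1.48-fold higher (log2 0.56 ± 0.07, adjusted p 2.97e-06, edgeR). Amotl2, at 687 ± 41.2 CPM with these fibroblasts and 510.1 ± 31.1 CPM alone, was 1.35-fold higher (log2 0.43 ± 0.06, adjusted p 6.75e-05). Ccn2, at 219.8 ± 27.6 CPM with these fibroblasts and 172 ± 16.9 CPM alone, was 1.28-fold higher (log2 0.35 ± 0.08, adjusted p 0.00342), with ranges that did not overlap for either gene.

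Smad7 had a smaller log2 difference here, 0.19 ± 0.09 (adjusted p 0.206, edgeR), and was not called, although its 3 libraries with SPARC-deficient fibroblasts lay above the 3 of T23 cells alone. Of the 9 genes 3 were called, each of them higher, where 9.74% of the tested genes were called, 6.1% higher and 3.65% lower. The ranges did not overlap for 7 of the 9, against 32.8% of the tested genes. Skil lay below T23 cells alone in each library, at 65.8, 72.4 and 77.8 CPM with SPARC-deficient fibroblasts against 83.9, 81.0 and 85.9 CPM, without passing the test (log2 -0.22 ± 0.08, adjusted p 0.0791). Ankrd1 (0.15 ± 0.07, adjusted p 0.234) and Tagln (0.43 ± 0.24, 0.320) lay above T23 cells alone without passing, and Ltbp2 (-0.19 ± 0.11, 0.339) and Tgfb1 (-0.16 ± 0.07, 0.155) overlapped and did not pass.

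The summed fibroblast markers were at 19049 to 19705 CPM with SPARC-deficient fibroblasts and at 17137 to 17684 CPM in T23 cells alone. On average Col1a1, Col3a1, Dcn, Pdgfrb and Thy1 were higher with SPARC-deficient fibroblasts, and Pdgfra was about equal (1115 against 1114 CPM). Fap was lower, at 2.25 ± 0.417 CPM with SPARC-deficient fibroblasts and 4.26 ± 0.630 CPM alone. The summed epithelial markers were at 16.6 to 19.1 CPM with SPARC-deficient fibroblasts and at 9.58 to 10.9 CPM alone, and the endothelial ones at 4.03 to 4.29 CPM with SPARC-deficient fibroblasts and at 6.32 to 7.35 CPM alone. The part of these sums in the differences was not tested.

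Ligand genes differed here too, Inhbb (log2 0.60) and Tgfb2 (0.25) higher and Tgfb3 lower (-0.35). The list counts stand against the 9.74% of tested genes called, 6.1% higher and 3.65% lower. Of 8 tested genes of latency and activation 2 were higher and 2 lower, with Fbn1 at 0.37, Lrrc32 at -0.37 and the latent complex gene Ltbp4 at -0.52. Of 8 receptor genes 3 were higher, Tgfbr3 (0.46), the endothelial coreceptor gene Eng (0.19) and the type II receptor gene Tgfbr2 (0.16). Of 12 TGF-beta targets 3 were higher and 0 lower, among them Lox (0.25) and the fibronectin gene Fn1 (0.23), and of 18 YAP targets 4 were higher and 1 lower, with Igfbp3 at 0.70, F3 at 0.25 and Asap1 at -0.18. Among 17 Hippo and TEAD genes, Tead3 (0.38), Lats2 (0.23) and the angiomotin gene Amotl1 (0.22) were higher. Ccn5 was higher (1.23) and Ccn3 lower (-0.83), and of 9 Smad and inhibitor genes edgeR called 0, DESeq2 1, with 4 at an unadjusted p under 0.05.

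Wild-type fibroblasts went the other way for the CCN genes. Ccn1 was at 533, 523 and 531 CPM with wild-type fibroblasts, against 655, 621 and 705 CPM in T23 cells alone. The groups did not overlap, and Ccn1 was 1.25-fold lower (log2 -0.32 ± 0.07, adjusted p 0.0237, edgeR). Ccn2 was at 130.4, 124 and 135 CPM with wild-type fibroblasts, against 171, 156 and 189.6 CPM alone. It was 1.32-fold lower, also without overlap (log2 -0.40 ± 0.08, adjusted p 0.0143).

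Both calls were lost when single libraries were left out. That of Ccn1 was lost without replicate 1 or 3 of T23 cells alone or any 1 of the 3 wild-type co-culture replicates (log2 -0.33 to -0.27, adjusted p 0.0670 to 0.199). That of Ccn2 was lost without replicate 1 or 3 of T23 cells alone or replicate 1 or 2 of the wild-type co-culture (log2 -0.41 to -0.33, adjusted p 0.0625 to 0.153). The 7 comparisons share libraries, since the enzalutamide co-culture, the wild-type co-culture and T23 cells alone each enter 3 of them, so they are not independent.

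Of the 9 genes 2 were called, both lower, where 0.515% of the tested genes were called, 0.257% in each direction. Amotl2 (log2 -0.20 ± 0.06, adjusted p 0.210, edgeR) and Skil (-0.20 ± 0.08, 0.335) also lay below T23 cells alone without overlap, and Tagln above (0.41 ± 0.24, 0.606), but none of these 3 passed. Ltbp2 (-0.37 ± 0.11, adjusted p 0.176), Smad7 (-0.20 ± 0.09, 0.434), Ankrd1 (-0.06 ± 0.07, 0.833) and Tgfb1 (-0.06 ± 0.07, 0.836) overlapped and did not pass either. Groups did not overlap for 5 of the 9, against 20.5% of the tested genes. In the pathway lists Acta2, the smooth muscle actin gene, was higher with wild-type fibroblasts, at 488 ± 43.1 CPM against 361 ± 23.7 CPM alone (log2 0.43, adjusted p 0.0188), and the summed smooth muscle markers were at 572 to 675 CPM with wild-type fibroblasts and at 453 to 505 CPM alone. Most of that sum was Acta2 itself, and the ranges of Smtn, Cnn1, Des and Myh11 overlapped between these groups. The summed epithelial markers were at 12.7 to 13.9 CPM with wild-type fibroblasts and at 9.58 to 10.9 CPM alone, and the endothelial ones at 5.01 to 6.25 CPM with wild-type fibroblasts and at 6.32 to 7.35 CPM alone. Of the endothelial markers, Kdr and Tek were lower on average with wild-type fibroblasts, and Pecam1 and Cdh5 were higher. The part of these 3 sums was not tested. Lox (-0.34) and Thbs1 (-0.28), whose product activates latent TGF-beta and which is also the 1 called latency gene, were lower, so that 1 of 12 TGF-beta targets was higher and 2 lower. Of 18 YAP targets edgeR and DESeq2 each called 0, with 3 at an unadjusted p under 0.05, and of 17 Hippo and TEAD genes edgeR called 0 and DESeq2 1, with 2 under 0.05. Among the other 4 ligand genes, 8 receptors, 9 Smad and inhibitor genes and 3 CCN genes edgeR called 0, and DESeq2 called 2 of the Smad and inhibitor genes, with 1, 0, 3 and 1 genes under 0.05.

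Enzalutamide without fibroblasts was accompanied by lower Ccn1, Ccn2 and Amotl2 and by slightly higher Ankrd1. Ccn1 was at 429.9, 395 and 491 CPM with enzalutamide, against 655, 621 and 705 CPM in T23 cells alone. The groups were far apart, and Ccn1 was 1.50-fold lower (log2 -0.59 ± 0.07, adjusted p 2.11e-06, edgeR). Ccn2 was at 129, 130.1 and 126 CPM with enzalutamide, against 171, 156 and 189.6 CPM alone. It was 1.34-fold lower without overlap (log2 -0.42 ± 0.08, adjusted p 0.000788). Amotl2 was at 456, 395 and 415 CPM with enzalutamide, against 522, 475 and 534 CPM alone, and was 1.21-fold lower, with the nearest libraries close together (log2 -0.27 ± 0.06, adjusted p 0.00641).

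Ankrd1, though also a YAP target, was at 264, 289 and 306 CPM with enzalutamide, against 245, 234 and 244 CPM alone. It was 1.19-fold higher without overlap (log2 0.25 ± 0.07, adjusted p 0.0315, edgeR). That call was lost without any 1 of the 3 libraries of T23 cells alone or without replicate 3 with enzalutamide (log2 0.19 to 0.26, adjusted p 0.0689 to 0.116). Without replicate 2, the library rich in ribosomal RNA, it held (log2 0.24, adjusted p 0.0433), and the same number of the 9 genes was called.

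Of the 9 genes 3 were called lower and 1 higher, where 12% of the tested genes were called, 5.19% lower and 6.84% higher. The median log2 difference was -0.27, against 0.00031 over the tested genes, and 5 of the 9 did not overlap, against 29.8% of the tested genes. Skil did not pass (84.1 ± 7.64 CPM with enzalutamide and 83.6 ± 2.45 CPM alone; log2 0.0020 ± 0.08, adjusted p 0.991, edgeR), nor did Tgfb1 (63.9 ± 1.48 CPM with enzalutamide and 61.0 ± 2.06 CPM alone; log2 0.06 ± 0.07, adjusted p 0.608). Ltbp2 (log2 -0.29 ± 0.11, adjusted p 0.102), Smad7 (-0.09 ± 0.09, 0.570) and Tagln (-0.59 ± 0.28, 0.183) did not pass either. Genes of the mitochondrial genome took 2.74 ± 1.16% of counts with enzalutamide and 0.924 ± 0.161% in T23 cells alone (SD, n = 3 each), and the summed fibroblast markers were at 14509 to 15983 CPM with enzalutamide and at 17137 to 17684 CPM alone. By their means Col1a1, Col3a1 and Dcn were lower with enzalutamide, whereas Pdgfra, Pdgfrb, Thy1 and Fap were higher. The endothelial sum was 3.70 to 5.92 CPM with enzalutamide and 6.32 to 7.35 CPM alone. Of its markers, Kdr and Tek were lower on average with enzalutamide. Pecam1 (0.419 against 0.318 CPM) and Cdh5 (0.404 against 0.204 CPM) were higher. The part of these 3 measures in the differences was not tested.

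Among the other pathway genes, 3 ligand genes and 1 receptor gene were lower with enzalutamide. The list counts here and in the next paragraph stand against the 12% of tested genes called, 5.19% lower and 6.84% higher. Tgfb3 was at 91.3 ± 6.24 CPM with enzalutamide and at 147 ± 6.37 CPM alone (log2 -0.70, adjusted p 1.66e-07, edgeR), and Tgfb2 (-0.27) and Inhbb (-0.19) were lower, so that 3 of the 4 other ligand genes were called lower. The receptor gene Tgfbr2 was at 673 ± 16.2 CPM with enzalutamide and at 994 ± 26.7 CPM alone (log2 -0.56, adjusted p 2.28e-08), the 1 called of 8 receptor genes, whose median log2 difference was 0.09. The anchor gene Lrrc32 was lower (-0.39), the 1 called of 8 latency genes. The called shares of the receptor and latency genes were near that of the tested genes. Of 12 TGF-beta targets 4 were lower and 1 higher, with Tgfbi at -0.39 and the type I collagen gene Col1a1 at -0.32.

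The further YAP targets did not move one way with enzalutamide. Of 18, 4 were lower and 2 higher, with Fjx1 at -0.67, Ccdc80 at -0.32 and the membrane repair gene Myof at 0.20, and their median was -0.01. Among 17 Hippo and TEAD genes, Amotl1 was higher (0.25), opposite in sign to its paralog Amotl2, and the TEAD cofactor gene Vgll4 was lower (-0.29). The called share of these 17 genes was near the 12% of the tested genes. Of the 3 other CCN genes tested, Ccn5, at 0.508 ± 0.141 CPM with enzalutamide and 2.35 ± 0.367 CPM alone, had a log2 difference of -2.27 (adjusted p 5.24e-05), and Ccn3 one of -0.52. Of 9 Smad and inhibitor genes edgeR and DESeq2 each called 0, with 3 at an unadjusted p under 0.05.

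**Figure D3:**
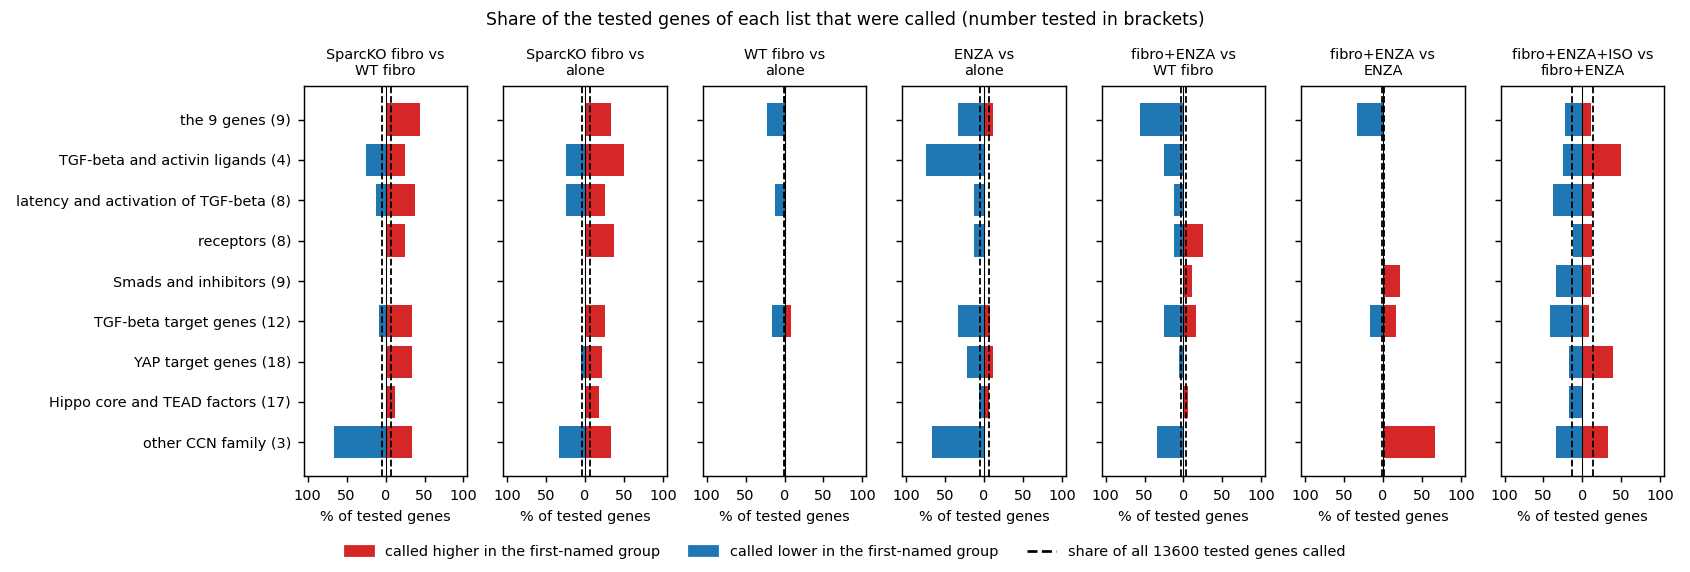
Share of the tested genes of each list (y axis, number tested in brackets) that edgeR called higher (red, to the right) or lower (blue, to the left) in the first-named group of each comparison (x axis, %). Dashed lines mark the shares of the 13600 tested genes that were called. In the panel of SPARC-deficient against wild-type fibroblasts the 9 genes show 4 called higher and 0 lower, against 6.72% of the tested genes called higher.

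In co-culture, enzalutamide went with lower Ccn1, Ccn2, Amotl2, Smad7 and Ltbp2, by 1.20-fold to 1.33-fold. Ccn1 was at 426, 441 and 456 CPM with fibroblasts and enzalutamide, against 533, 523 and 531 CPM with wild-type fibroblasts and no drug. The groups were separate (log2 -0.26 ± 0.07, adjusted p 0.0136, edgeR). Ccn2 was at 109, 97.5 and 103 CPM with fibroblasts and enzalutamide, against 130.4, 124 and 135 CPM with wild-type fibroblasts, also apart (log2 -0.34 ± 0.08, adjusted p 0.00761). Amotl2 was at 369.8, 359.6 and 374 CPM with fibroblasts and enzalutamide, against 461, 435 and 439.7 CPM with wild-type fibroblasts, a gap wider than either group's range (log2 -0.28 ± 0.06, adjusted p 0.00785).

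Smad7 was at 11.6, 12.3 and 14.6 CPM with fibroblasts and enzalutamide, against 18.1, 15.6 and 14.8 CPM with wild-type fibroblasts. The nearest libraries almost touched (log2 -0.33 ± 0.09, adjusted p 0.0341, edgeR). Ltbp2 was at 23.0, 21.2 and 27.1 CPM with fibroblasts and enzalutamide, against 36.0, 31.3 and 28.0 CPM with wild-type fibroblasts, likewise separated by a narrow gap (log2 -0.41 ± 0.12, adjusted p 0.0301). Ankrd1 lay above the undrugged co-culture without overlap but did not pass (271 ± 8.20 CPM with fibroblasts and enzalutamide and 231 ± 2.80 CPM with wild-type fibroblasts; log2 0.23 ± 0.07, adjusted p 0.0640), whereas DESeq2 called it (0.0404). Tgfb1 (log2 0.12 ± 0.07, adjusted p 0.369, edgeR), Tagln (-0.03 ± 0.24, 0.969) and Skil (-0.03 ± 0.08, 0.896) did not pass. The ranges of the groups did not overlap for 7 of the 9 genes, against 25.8% of the tested genes.

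These 5 calls, of 9 genes where 7.18% of the tested genes were called, 3.49% lower and 3.7% higher, depended on the libraries. The index numbers in the titles restart within the enzalutamide co-culture, so that its replicates 2 and 3 share a numbering series with the isoliquiritigenin libraries. With that series as a term in the fit, replicate 1 alone stood for the enzalutamide co-culture in this comparison. That fit therefore cannot show whether these calls depend on the series. Its signs held, with Ccn1 at -0.31, Ccn2 at -0.26, Amotl2 at -0.27, Smad7 at -0.47 and Ltbp2 at -0.46. Without replicate 2 of the enzalutamide co-culture 0 of the 9 genes were called by edgeR. The number was 2 without its replicate 1, and 2 or 3 without replicate 1 or 2 of the wild-type co-culture. The labels' disagreement on whether the fibroblasts under enzalutamide were human or mouse also lies between these groups and cannot be told apart from the drug. The mitochondrial share was 2.32 ± 0.667% of counts with fibroblasts and enzalutamide and 1.02 ± 0.282% with wild-type fibroblasts. The summed fibroblast markers were at 15515 to 16199 CPM with fibroblasts and enzalutamide and at 16601 to 17847 CPM with wild-type fibroblasts. By their means Col1a1 and Dcn were lower with fibroblasts and enzalutamide, whereas Col3a1, Pdgfra, Pdgfrb, Thy1 and Fap were higher. The epithelial sum was 5.95 to 8.19 CPM with fibroblasts and enzalutamide and 12.7 to 13.9 CPM with wild-type fibroblasts, and the endothelial sum 3.98 to 4.25 CPM with fibroblasts and enzalutamide and 5.01 to 6.25 CPM with wild-type fibroblasts. What part these measures had was not tested.

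The list counts for enzalutamide in co-culture stand against the 7.18% of tested genes called, 3.49% lower and 3.7% higher. Of the other 4 ligand genes 1 was lower, Tgfb3 (log2 -0.62, adjusted p 1.42e-06, edgeR), at 87.9 ± 5.53 CPM with fibroblasts and enzalutamide and 135 ± 4.77 CPM with wild-type fibroblasts. Tgfbr2 was lower (-0.47), and Acvr2a (0.44) and Tgfbr3 (0.22) were higher, which is 3 of 8 receptor genes called. Lrrc32 was lower (-0.41), the 1 called of 8 latency genes. Of 12 TGF-beta targets 3 were lower, including Tgfbi (-0.54) and Col1a1 (-0.27), and 2 higher. Of 18 YAP targets 1 was lower, Ccdc80 (-0.28), and 0 were higher, and Amotl1 (0.22) was the 1 called of 17 Hippo and TEAD genes. The 1 called of 9 Smad and inhibitor genes was the TGF-beta feedback gene Pmepa1 (0.19), and of the CCN genes Ccn5 was lower (-2.13).

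Whether the enzalutamide response differed with and without fibroblasts was tested as an interaction. Of the 9 genes edgeR and DESeq2 each called 0, with 1 at an unadjusted p under 0.05, where 0.0221% of the tested genes, 3 in number, were called, 0.0147% higher and 0.00735% lower. That gene was Ccn1, whose log2 difference between groups was -0.26 in co-culture and -0.59 without fibroblasts, a difference of 0.33 ± 0.09 (adjusted p 0.554). It was called with no filter on low counts (adjusted p 0.0277). For Amotl2 the responses were -0.28 and -0.27, and the difference was -0.0028 ± 0.09. Over the 9 genes the differences ran from -0.23 ± 0.13 for Smad7 to 0.56 ± 0.37 for the low gene Tagln, whose SE was the largest. Neither the 0.56 of Tagln nor the 0.33 of Ccn1 passed in the main fit. The size of difference that could have been detected was not computed.

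Under enzalutamide, the presence of fibroblasts went with lower Ccn2, Smad7 and Ltbp2. Ccn2 was at 109, 97.5 and 103 CPM with fibroblasts and enzalutamide, against 129, 130.1 and 126 CPM with enzalutamide alone. The groups did not overlap (log2 -0.32 ± 0.08, adjusted p 0.0294, edgeR). Smad7 was at 11.6, 12.3 and 14.6 CPM with fibroblasts and enzalutamide, against 18.1, 18.2 and 16.1 CPM with enzalutamide alone, without overlap (log2 -0.44 ± 0.10, adjusted p 0.0140). Ltbp2 was at 23.0, 21.2 and 27.1 CPM with fibroblasts and enzalutamide, against 36.0, 26.4 and 36.9 CPM with enzalutamide alone. Here the ranges overlapped (log2 -0.50 ± 0.12, adjusted p 0.0264). The 26.4 CPM was measured in replicate 2, and without that library the log2 difference was -0.62 (adjusted p 0.00110).

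In this comparison 3 of the 9 genes were called, each lower, where 2.08% of the tested genes were called, 0.941% lower and 1.14% higher, and the groups did not overlap for 5, against 14.9% of the tested genes. Again 0 of the 9 were called by edgeR with the fit limited to both groups (adjusted p 0.105 to 0.163 for these 3). The same held without replicate 1 of enzalutamide alone (0.0930 to 0.133) or without replicate 2 of the co-culture (0.0963 to 0.179). Without replicate 1 of the co-culture 1 was called. With the numbering series as a term, replicate 1 alone stood for the co-culture, so that fit cannot show whether these calls depend on the series. Tagln was at 4.30, 3.35 and 2.47 CPM with fibroblasts and enzalutamide, against 1.92, 0.907 and 2.00 CPM with enzalutamide alone. The groups were apart by 1.96-fold without passing the test (log2 0.97 ± 0.27, adjusted p 0.0594), and DESeq2 called the gene (0.0313). With the replicate block, Tagln was called too (log2 1.01, adjusted p 0.0447). Amotl2 (-0.20 ± 0.06, adjusted p 0.113) and Skil (-0.23 ± 0.08, 0.144) lay below enzalutamide alone without passing, and Ankrd1 (-0.08 ± 0.07, 0.683), Ccn1 (0.0062 ± 0.07, 0.982) and Tgfb1 (-0.01 ± 0.07, 0.983) overlapped.

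Beside Tagln, the smooth muscle actin gene Acta2 was at 611 ± 41.0 CPM with fibroblasts and enzalutamide and at 393 ± 25.3 CPM with enzalutamide alone (log2 0.64, adjusted p 0.000269, edgeR). The summed level of 5 smooth muscle markers, of which Acta2 made up most, was 671 to 759 CPM with fibroblasts and enzalutamide and 488 to 539 CPM with enzalutamide alone. The immune marker sum was 3.46 to 4.70 CPM with fibroblasts and enzalutamide and 5.03 to 6.89 CPM with enzalutamide alone. What part these sums had was not tested. The list counts stand against the 2.08% of tested genes called in this comparison. Of 12 TGF-beta targets 2 were higher, Acta2 and Pmepa1 (0.35), and 2 lower, including Tgfbi (-0.38). Of 9 Smad and inhibitor genes Smad3 (0.20) and Pmepa1, which stands on both lists, were higher. Of the 3 other CCN genes Ccn3 (0.50) and Ccn4 (0.27) were higher. Among the 4 ligands, 8 latency genes, 8 receptors, 18 YAP targets and 17 Hippo and TEAD genes edgeR called 0, and DESeq2 called 1 receptor and 1 Hippo or TEAD gene, with 0, 0, 4, 4 and 3 genes at an unadjusted p under 0.05.

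Isoliquiritigenin, added to fibroblasts and enzalutamide, went with lower Ankrd1, higher Ltbp2 and slightly lower Tgfb1. Ankrd1 was at 164, 131 and 179 CPM with isoliquiritigenin, against 272, 262 and 278 CPM with fibroblasts and enzalutamide. The groups were far apart, and Ankrd1 was 1.71-fold lower (log2 -0.78 ± 0.08, adjusted p 5.19e-08, edgeR). Ltbp2 was at 33.3, 40.8 and 36.3 CPM with isoliquiritigenin, against 23.0, 21.2 and 27.1 CPM with fibroblasts and enzalutamide. It was 1.54-fold higher without overlap (log2 0.63 ± 0.12, adjusted p 0.000233). Ltbp2 spanned 28.0 to 36.0 CPM in the wild-type co-culture and 36.0 to 45.3 CPM in T23 cells alone, and isoliquiritigenin was not tested against either. Tgfb1 was at 52.0, 52.2 and 60.6 CPM with isoliquiritigenin, against 61.8, 61.2 and 67.6 CPM with fibroblasts and enzalutamide.

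For Tgfb1 the nearest libraries were 60.6 and 61.2 CPM, and the difference was 1.16-fold (log2 -0.21 ± 0.07, adjusted p 0.0277, edgeR). It was lost without replicate 1 or 2 with isoliquiritigenin or replicate 3 of the enzalutamide co-culture (log2 -0.17 to -0.16, adjusted p 0.122 to 0.137). With the numbering series as a term the 3 calls held, with Ankrd1 at -0.77 (adjusted p 8.60e-07), Ltbp2 at 0.60 (0.00218) and Tgfb1 at -0.23 (0.0397). In this fit the series is told apart from the drugs through replicate 1 of the enzalutamide co-culture alone.

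Of the 9 genes 2 were called lower and 1 higher, where 26.5% of the tested genes were called, 13.6% lower and 12.9% higher. The share of the 9 that was called was thus near that of the tested genes, and the groups did not overlap for 5 of them, against 40.5% of the tested genes. The other YAP-responsive genes did not pass: Amotl2 was at 303, 336 and 345 CPM with isoliquiritigenin, against 369.8, 359.6 and 374 CPM with fibroblasts and enzalutamide, apart but not called by edgeR (log2 -0.17 ± 0.06, adjusted p 0.0583). DESeq2 called it (adjusted p 0.0372), as did edgeR with the fit limited to both groups (0.0354), without replicate 3 with isoliquiritigenin (0.0403) or without replicate 2 of enzalutamide alone (0.0243). Ccn1 (-0.10 ± 0.07, adjusted p 0.269) and Ccn2 (-0.11 ± 0.08, 0.324) did not pass, nor did Smad7 (0.12 ± 0.10, 0.373) and Skil (-0.11 ± 0.08, 0.329). Tagln, at 2.35 ± 0.925 CPM with isoliquiritigenin and 3.37 ± 0.913 CPM with fibroblasts and enzalutamide, had a larger but imprecise difference (log2 -0.51 ± 0.24, adjusted p 0.134). The summed fibroblast markers were at 13008 to 13193 CPM with isoliquiritigenin and at 15515 to 16199 CPM with fibroblasts and enzalutamide, and the mitochondrial share at 3.42 ± 0.536% of counts with isoliquiritigenin and 2.32 ± 0.667% with fibroblasts and enzalutamide. Of the fibroblast markers, Pdgfra (1377 against 1131 CPM) and Pdgfrb (324 against 278 CPM) were higher on average with isoliquiritigenin. Col1a1, Col3a1, Dcn, Thy1 and Fap were lower on average. The summed epithelial markers were at 1.66 to 3.01 CPM with isoliquiritigenin and at 5.95 to 8.19 CPM with fibroblasts and enzalutamide. The smooth muscle sum was 498 to 625 CPM with isoliquiritigenin and 671 to 759 CPM with fibroblasts and enzalutamide, and the endothelial sum 6.38 to 6.49 CPM with isoliquiritigenin and 3.98 to 4.25 CPM with fibroblasts and enzalutamide. Of the endothelial markers, Kdr and Tek were higher on average with isoliquiritigenin. Cdh5 was lower (0.127 against 0.387 CPM), and Pecam1 was at 0.34 CPM in both groups. The part of these measures in the differences was not tested.

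The counts of pathway genes called with isoliquiritigenin stand against the 26.5% of tested genes called in this comparison. Among ligands the activin gene Inhba was lower (log2 -0.49, adjusted p 0.000764, edgeR), and Inhbb (0.48) and Tgfb2 (0.24) were higher. Of 8 latency genes 3 were lower, Itgav, an integrin subunit that activates latent TGF-beta (-0.36), Lrrc32 (-0.34) and Ltbp1 (-0.28), and 1 was higher. Tgfbr1 was higher (0.19) and Tgfbr2 lower (-0.14) among 8 receptors. Of 9 Smad and inhibitor genes 3 were lower, including Tgif1 (-0.26) and Smad3 (-0.16), and the corepressor gene Ski was higher (0.17).

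Of 12 TGF-beta targets 5 were lower and 1 higher. Fn1 was at 7251 ± 529 CPM with isoliquiritigenin and at 10045 ± 326 CPM with fibroblasts and enzalutamide (log2 -0.47, adjusted p 1.01e-06, edgeR). Lox was at 1556 ± 47.5 CPM with isoliquiritigenin and at 1005 ± 45.1 CPM with fibroblasts and enzalutamide (log2 0.63, adjusted p 8.02e-07). Of 18 YAP targets 7 were higher and 3 lower, with F3 at 0.35, Asap1 at 0.28 and the receptor kinase gene Axl at -0.27. Among 17 Hippo and TEAD genes 3 were lower, Amotl1 (-0.35), Tead1 (-0.29) and Tead2 (-0.22), and of the CCN genes Ccn3 was higher (1.12) and Ccn4 lower (-0.44).

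Likeness between genes was described as Pearson's r of log2 CPM over the 18 libraries, which share their 6 groups, so that r mostly reflects group means. Ccn2 and Amotl2 had r = 0.965, Ccn1 and Amotl2 0.946, and Ccn1 and Ccn2 0.932. After each group's mean was subtracted, the same pairs had r of 0.423, 0.295 and 0.373. Ccn1 and Ankrd1 had r = 0.329 over the 18 libraries and 0.198 within groups, and Ccn1 and the ligand gene Tgfb1 had -0.347 and 0.122. Smad7 had r = 0.866 with Ccn2 over the 18 libraries and 0.067 within groups.

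**Figure D4:**
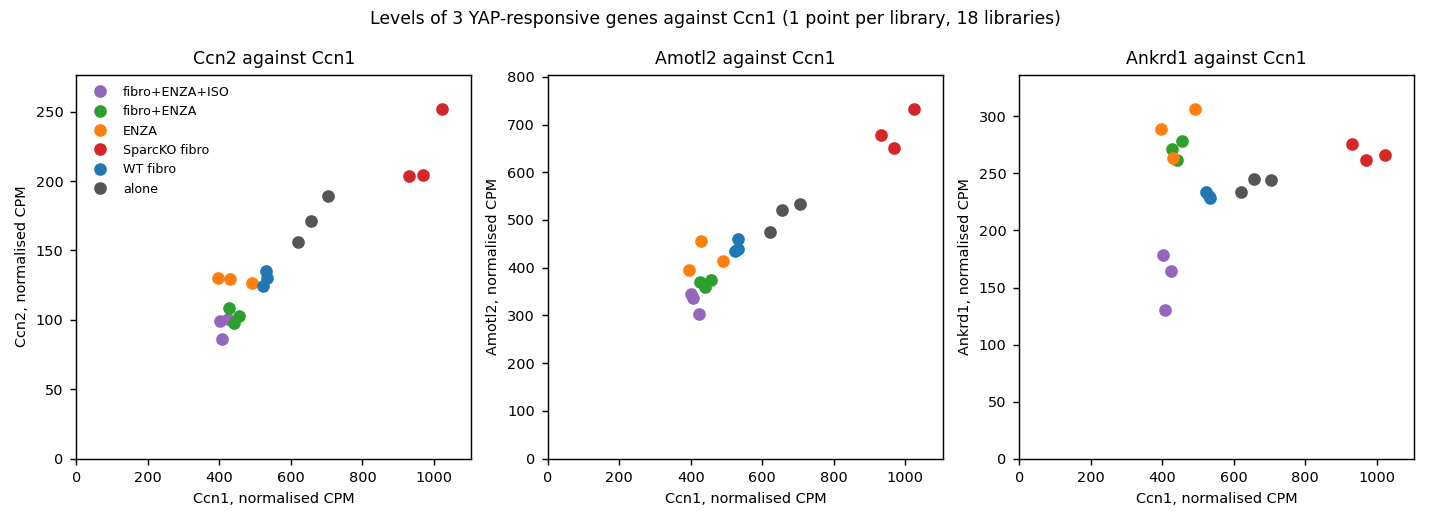
Levels of Ccn2, Amotl2 and Ankrd1 (y axes, normalised CPM) against Ccn1 (x axis, normalised CPM), 1 point per library and 1 colour per group, 18 libraries. Ccn2 and Amotl2 lie along a line with Ccn1 (r of log2 values 0.932 and 0.946), and Ankrd1 does not (r = 0.329), with the 3 isoliquiritigenin libraries lowest, at 131 to 179 CPM.

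Among 10226 tested genes with a mean of at least 5 CPM, those most like Ccn1 were Dkk3 (r = 0.965), Mfap5 (0.963) and Tnfaip6 (0.953). Amotl2 itself was the gene most like Ccn2, followed by Tiparp (0.959) and Adamtsl4 (0.956). For Amotl2 they were Adm (0.978), Angptl2 (0.973) and Sdc4 (0.969), and for Ankrd1 Slc43a3 (0.968), Errfi1 (0.958) and Map4 (0.942). For Smad7 they were Arrdc4 (0.913), Sil1 (0.9001) and Ptgfrn (0.9001). For Tagln, Skil, Ltbp2 and Tgfb1 no gene reached 0.9, the highest r being 0.861, 0.875, 0.892 and 0.843.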

How the data were processed

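Total RNA was captured on poly(A), made into dUTP-stranded libraries and sequenced on a NextSeq 550, per the labels' protocols. The authors deposited raw gene counts, 1 file per library, without normalisation. The build was GRCm38, per the submitters' processing notes, which name STAR 2.6.1d, featureCounts 2.0, cutadapt 2.9, FastQC 0.11.9, bcl2fastq 2.20.0.422 and DESeq2 as tools. The annotation release, the strand setting and the treatment of reads matching several places are not given in the sources used here. Without a strand setting, reads of Ccn2, Tagln and Ltbp2 cannot be told apart from those of overlapping antisense genes. These had 1 to 15 counts per library for Gm15270 (Ccn2), 247 to 894 for Pcsk7 and 3 to 13 for Gm48529 (Tagln), and 0 to 8 for D030025P21Rik (Ltbp2).

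Symbols were found for 55141 of 55487 identifiers, and gene coordinates are those of GENCODE M21. Genes passed filterByExpr at a minimum count of 10, and library sizes were scaled by TMM. A model with a mean for each group was then fitted over the 18 libraries (12 residual degrees of freedom) using edgeR 4.0.16, under R 4.3.3 with limma 3.58.1. Contrasts were tested by the two-sided quasi-likelihood F test. Adjusted p are Benjamini-Hochberg values over 13600 genes, and a gene is called under 0.05. The SE of a log2 fold change is its size over the square root of F. CPM use the scaled library sizes, and RPKM divide them by exonic length. Floors assume 3 counts over the unscaled library total and cover counting error alone, and reads carry no molecular identifiers.

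Alternatives were DESeq2 1.42.0, RLE size factors, no filter, the numbering series or a replicate block as a term, a fit of the compared groups, and leaving out each library. Same-number libraries did not deviate together: 0 of 15 pairs of groups had each correlation over 0.1 (range -0.144 to 0.0982). Replicates differed beyond counting noise (chi-square over degrees of freedom 2.59 to 13.2, and 621 and 630 in pairs with replicate 2 of enzalutamide). The test was checked on simulated counts. The 9 genes, the pathway lists and the tests were chosen with earlier results of these data known. The 9 genes are given in each comparison of groups, and by their range in the interaction. List genes are named if among the 3 called with smallest p per list (1 TGF-beta target gene is not reported here), and like genes if r is at least 0.9.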

Additional observations from a re-analysis of the deposited data

Results flagged for a closer look

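Measured against T23 cells alone, the response to SPARC-deficient fibroblasts differed from the response to wild-type fibroblasts for 4 of the 9 genes, by the direct test between both co-cultures, which called 11.5% of the tested genes. The log2 difference between the responses was 0.88 for Ccn1, 0.76 for Ccn2, 0.63 for Amotl2 and 0.39 for Smad7. Against T23 cells alone, the log2 fold change of Ccn1 was 0.56 with SPARC-deficient fibroblasts and -0.32 with wild-type fibroblasts, and that of Ccn2 was 0.35 with SPARC-deficient fibroblasts and -0.40 with wild-type fibroblasts. That of Amotl2 was 0.43 with SPARC-deficient fibroblasts and -0.20 with wild-type fibroblasts, and that of Smad7 was 0.19 with SPARC-deficient fibroblasts and -0.20 with wild-type fibroblasts. Of these 4 values for Amotl2 and Smad7, the 0.43 passed the edgeR test against T23 cells alone and the others did not.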

How the results depend on the processing

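Of 72 results for single genes, 24 were called in edgeR. The share of the tested genes called ran from 0.0221% in the interaction to 26.5% with isoliquiritigenin added. Of these, 12 kept their call under each alternative and 12 lost it under at least 1, and 0 changed sign. Of the 48 not called, 11 were called under at least 1 alternative. Precision was limited by 3 libraries per group and, for Tagln, by counts.

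For SPARC-deficient against wild-type fibroblasts, 1566 genes were called, 857 to 2085 when 1 library was left out. Against T23 cells alone 1325 were called, 2188 with the fit limited to these groups (5 of the 9 genes rather than 3) and 743 to 1724 without 1 library. For wild-type fibroblasts 70 were called, 153 by DESeq2, 165 with no filter, 336 with the fit limited to these groups (4 of the 9 genes rather than 2) and 11 to 157 without 1 library (0 to 3 of the 9). For enzalutamide alone 1636 were called, 740 with the limited fit and 901 to 1710 without 1 library. For enzalutamide in co-culture 977 were called, 214 with the numbering series as a term (0 of the 9) and 550 to 1423 without 1 library (0 to 6 of the 9). For fibroblasts under enzalutamide 283 were called, 425 by DESeq2, 541 with no filter, 11 with the series term (0 of the 9), 56 with the limited fit (0 of the 9) and 83 to 419 without 1 library (0 to 4 of the 9). For the interaction 3 were called, 99 with no filter (1 of the 9), 0 to 12 without 1 library, and 0 with RLE size factors, the series term, the limited fit or the replicate block. With the series term, replicate 1 alone stood for the enzalutamide co-culture in these fits, so counts with that term cannot show a dependence on the series. The causes were not tested.

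Signs that reversed belonged to uncalled results. Skil with enzalutamide was at -0.011 with no filter, -0.00098 with the limited fit and -0.068 to 0.047 without 1 library. In co-culture with enzalutamide, Skil was at 0.051 and Tagln at 0.32 with the series term, and at -0.089 to 0.032 and -0.24 to 0.15 without 1 library. For fibroblasts under enzalutamide, Ccn1 was at -0.043 with the series term and -0.066 to 0.094 without 1 library, and Tgfb1 at 6.7e-05 with no filter and -0.054 to 0.020 without 1 library. In the interaction, Amotl2 was at 0.0040 with no filter, 0.0057 with the series term, 0.0035 with the limited fit and -0.048 to 0.063 without 1 library, Skil at 0.049 with the series term and -0.088 to 0.043, and Ankrd1 at -0.071 to 0.035. For SPARC-deficient against wild-type fibroblasts, Skil ran from -0.077 to 0.044 and Tagln from -0.065 to 0.17 without 1 library.

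With the replicate block, the number of genes called stayed within 1.5 times in the 7 comparisons of groups. The block changed 1 call of the 9 genes, that of Tagln for fibroblasts under enzalutamide (log2 1.01).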
